A study of Mus musculus with 12 samples.

Results

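The genes described here are the core of the integrated stress response downstream of the transcription factors ATF4 and CHOP: Atf4, Atf5, Atf3, Ddit3, Trib3, Ppp1r15a, Asns, Chac1, Sesn2 and Ddit4. They were chosen by gene symbol in the deposited FPKM table, with their levels under copper and under bile acid already known, so those levels are a description and carry no test. All 10 symbols were among the 24824 genes of the table, and all 10 were among the 10615 genes that had a mean FPKM of at least 1 over the libraries and entered the comparisons. The cells were AML12, an immortalized mouse hepatocyte line labelled wild type, kept for 24 h under 1 of 4 conditions. Group A was grown in standard medium and received neither agent. Group B received 300 μM CuCl2 and 40 nM elesclomol, a small molecule that carries copper into cells (Cu/ES). Group C received the same Cu/ES together with 1000 μM taurocholic acid (TCA), a conjugated bile acid, and group D received 1000 μM TCA alone. Each group had 3 libraries of polyadenylated RNA. Nothing in the labels says whether they came from separate cultures, so p-values measure the spread between these libraries, which may be technical.

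In the integrated stress response, kinases that sense misfolded protein, missing amino acids, lack of heme or double-stranded RNA phosphorylate the initiation factor eIF2. General translation slows, while a few messages with short reading frames ahead of the coding sequence, Atf4 above all, are translated more. ATF4 and its partners then switch on genes for amino acid supply, redox balance and, when the stress lasts, cell death through CHOP, the product of Ddit3. In liver cells this response is known from stress of the endoplasmic reticulum, amino acid shortage and bile acid overload.

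ATF4 binds an element shared by C/EBP and ATF factors, called CARE here and searched as TGATGNAA on both strands (N is any base). It was found in 4 of the 11 promoter windows of the 10 genes, in Atf3, Chac1, Trib3 and Asns. Of the 32851 mouse windows of the same length from RefSeq, 3.97% held it. Windows were on GRCm38.p6 and ran from 250 bases before to 50 bases after the start of transcription. The cAMP response element TGACGTCA, a site of ATF and CREB factors, was in the window of Ppp1r15a and in 1.79% of all windows. The stretches around these matches are shown because the counts of CARE and of TGACGTCA among the 10 genes rest on them. The motif is in capitals and each stretch reads 5′ to 3′ on the strand of the gene. The first lies at chr1:191183410-191183469 (minus strand), 136 to 77 bases before the start of Atf3. That of Chac1 is chr2:119351023-119351082 (plus strand), that of Asns chr6:7693210-7693269 (minus strand) and that of Ppp1r15a chr7:45526269-45526328 (minus strand), all in the sequence before the start. The stretch of Trib3, chr2:152344028-152344057 (minus strand), lies 4 to 33 bases inside the transcribed region.
Atf3: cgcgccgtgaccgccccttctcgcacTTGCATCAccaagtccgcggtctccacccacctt
Chac1: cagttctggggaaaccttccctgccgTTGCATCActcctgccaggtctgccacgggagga
Trib3: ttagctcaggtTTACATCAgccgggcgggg
Asns: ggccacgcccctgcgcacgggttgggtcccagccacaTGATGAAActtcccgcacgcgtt
Ppp1r15a: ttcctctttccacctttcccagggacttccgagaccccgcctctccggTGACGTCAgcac

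The element is on the opposite strand in Atf3, Chac1 and Trib3 and on the strand of the gene in Asns. Atf3 and Trib3 both match the searched letters, before the start in Atf3 and inside the transcribed region in Trib3. As given below, they lay on opposite sides of the untreated level under Cu/ES. Any part of the element in this was not tested. The windows of Atf4, Atf5, Ddit3, Sesn2 and Ddit4 held neither motif, which says only that these letters are not within those 300 bases. A core of the heat shock element, GAANNTTC, was in the Asns window only, where it overlaps the CARE, against 7.86% of all windows. The core of the metal response element, TGCGCNC or TGCACNC, was in the windows of Atf3, Ddit3, Asns and Ddit4 and in 25.7% of all windows. Of the other feature tied to this response, start codons ahead of the coding sequence, 7 of the 10 genes had at least 1 in the transcript that GENCODE vM21 numbers as the first of the gene, against 50.0% of 19398 mouse genes. Atf4 and Ppp1r15a had 3 each, Atf5, Ddit3 and Asns had 2 each, Atf3 and Sesn2 had 1 each, and Chac1, Trib3 and Ddit4 had 0. The stretch ahead of the coding sequence was 169 (Asns) to 594 (Atf4) bases long in the 10 genes, against a median of 148 over all genes. The 2 shares were not matched for this length, so they cannot be compared directly.

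Reads recovered from the FPKM steps summed to between 29112016 and 34908553 in the libraries with Cu/ES (groups B and C) and to between 38290273 and 39772245 in the others. Libraries with Cu/ES had 8458 to 8711 genes with an FPKM of at least 1, the others 10570 to 10893. Over all genes tested, the median of the log2 fold changes was -1.10 between groups B and A and -1.13 between groups C and D, against -0.01 between D and A and -0.03 between C and B, so a gene that kept its share of the library lay well above most genes under Cu/ES. Of 15 hepatocyte markers, 11 were in the table and 6 of them, the defining genes Alb, Apob, Hnf4a, Fgb, Ahsg and Trf, were below 1 FPKM in every group. The summed level of this list came almost wholly from the keratins Krt8 and Krt18 and was 599 to 652 FPKM in group A, 238 to 289 in group B, 174 to 210 in group C and 700 to 720 in group D. Summed FPKM of the fibroblast or stellate cell list (9 of 9 in the table, Col1a2, Acta2, Lum, Dcn and Pdgfrb below 1 in every group) was 2119 to 2339, 298 to 354, 154 to 196 and 1814 to 1936 in groups A to D, mostly from Vim. The cholangiocyte list (6 of 6, with Krt7 and Epcam below 1) summed to 920 to 1004, 1242 to 1406, 739 to 953 and 743 to 790. The macrophage or blood cell list (7 of 8, with Ptprc and Adgre1 near 0) gave 72.5 to 102, 24.6 to 29.3, 24.1 to 37.0 and 25.5 to 37.0, from Cd68. The endothelial list (5 of 5, with Lyve1 and Stab2 near 0) gave 0.922 to 1.16, 6.79 to 10.5, 16.5 to 19.7 and 0.865 to 1.25. In groups B and C most of it was Pecam1, with means of 6.85 and 16.1 FPKM. The part of depth and of these markers in the values below was not tested. In bulk RNA, fewer cells that express a gene and less of its RNA per cell cannot be told apart.

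**Figure D1:**
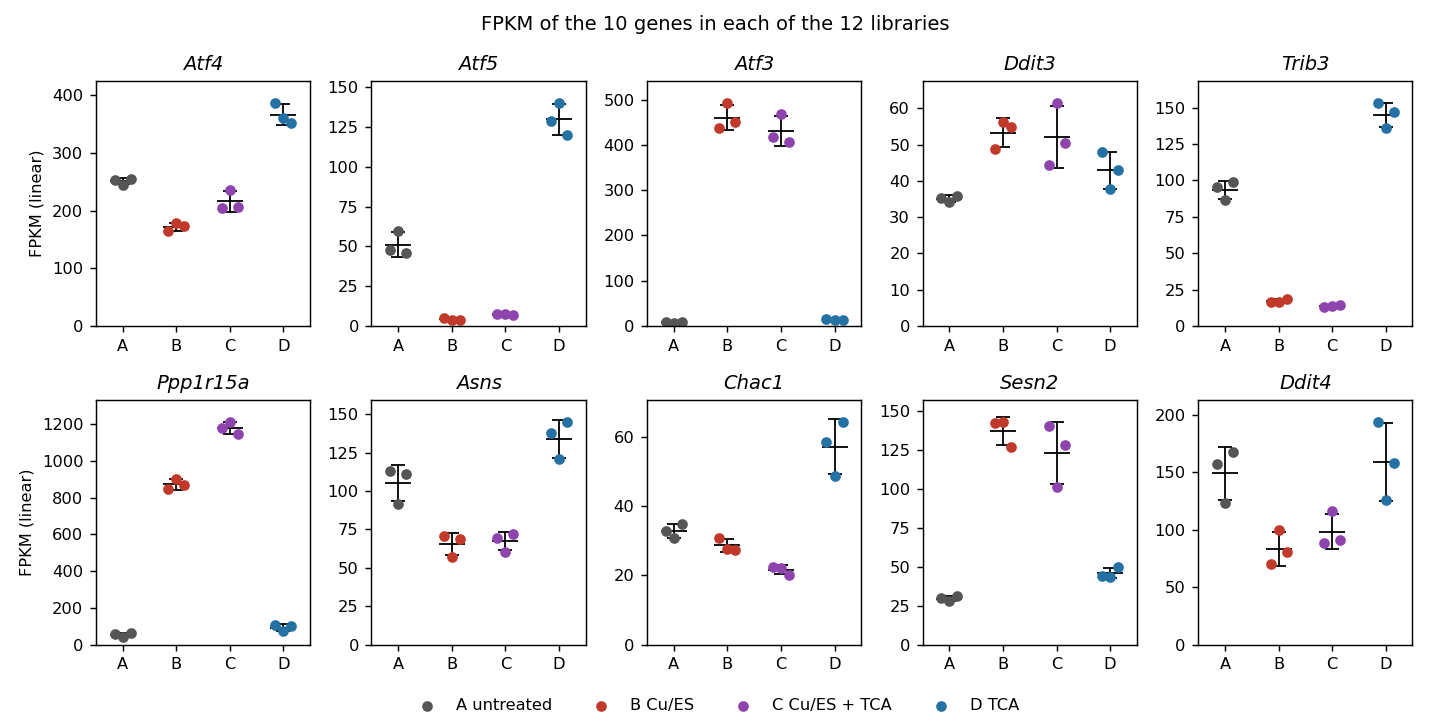
FPKM of the 10 genes (vertical axes, linear and starting at 0, each gene on its own scale) in the 3 libraries of groups A (untreated), B (Cu/ES), C (Cu/ES with TCA) and D (TCA), with the mean and SD as black bars. Atf3, Ppp1r15a and Sesn2 were high in groups B and C, Atf5 and Trib3 were low there and highest in group D.

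Among the transcription factors, Atf4, which encodes the factor at the head of the response, was the most abundant of the 10 genes in untreated cells. Its FPKM was 253, 245 and 255 in libraries 1 to 3 of group A, 165, 179 and 173 in group B, 205, 236 and 207 in group C and 386, 361 and 351 in group D. No pair of groups overlapped: all TCA libraries were above the untreated ones and all libraries with Cu/ES below them. The difference from group A was -0.54 on the log2(FPKM + 1) scale under Cu/ES (standard error 0.07) and 0.54 under TCA (0.07), equal in size and opposite in sign. The value under Cu/ES was still 0.56 above the median of all genes, and with median-ratio scaling, which centres that median near 0, it was 0.74.

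Atf5 encodes a close relative of ATF4 that is likewise under translational control and serves the mitochondrial stress response. Its FPKM was 47.7, 60.0 and 46.0 in group A, 5.14, 4.03 and 3.97 in group B, 7.54, 7.54 and 6.87 in group C and 129, 140 and 120 in group D. It had the lowest mean of the 10 genes in groups B and C, where every library was far below the untreated ones, and the largest log2 difference of the 10 genes under TCA. The log2 difference from group A was -3.28 under Cu/ES (standard error 0.11), which is -2.18 relative to the median of all genes, and 1.33 under TCA (0.11). As linear FPKM, the group D mean was 2.53 times and the group B mean 0.0855 times that of group A. The lowest library of group B rested on 212 reads. On GRCm38 the gene shares 571 bases with Nup62 on the opposite strand, whose mean FPKM was 24.6, 45.3, 32.4 and 23.1 in groups A to D, and whether reads were counted by strand is not given in the sources used here.

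Atf3 encodes an inducible repressor of the same family. FPKM was 8.88, 6.85 and 8.46 in group A, 438, 492 and 451 in group B, 418, 469 and 407 in group C and 14.5, 12.5 and 12.9 in group D. Groups B and C overlapped each other and stood far above the rest, and the TCA libraries lay just above the untreated ones without overlap. This was the widest difference of the 10 genes under Cu/ES, with a log2 value of 5.67 (standard error 0.09), a ratio of means of 57.1, against 0.66 (0.09) and a ratio of 1.65 under TCA. Its mean was the lowest of the 10 genes in group A, and in group B only that of Ppp1r15a was higher.

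Ddit3, the gene of CHOP, had small differences under both agents on the deposited scale. Its FPKM was 35.3, 34.1 and 35.9 in group A, 48.7, 56.3 and 54.8 in group B, 44.4, 61.4 and 50.5 in group C and 48.0, 37.9 and 42.9 in group D. All treated libraries were above all untreated ones, and group C, whose library 2 was the highest of all 12, overlapped groups B and D. The log2 difference from group A was 0.59 under Cu/ES (standard error 0.11) and 0.28 under TCA (0.11). The value under Cu/ES was 1.69 relative to the median of all genes. It was 0.23 in TPM, 1.84 with median-ratio scaling and 0.92 with quantile normalization. It shares 68 bases on GRCm38 with the gene of methionyl-tRNA synthetase, Mars1, on the opposite strand, whose mean FPKM was 38.1, 16.6, 13.6 and 42.4 in groups A to D.

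Both feedback regulators in the set responded to Cu/ES with large differences of opposite sign. Trib3 encodes a pseudokinase that CHOP and ATF4 induce and that restrains ATF4 in turn. FPKM of Trib3 was 95.2, 86.7 and 98.9 in group A, 16.7, 16.5 and 18.8 in group B, 13.0, 13.8 and 14.6 in group C and 153, 136 and 147 in group D. No pair of groups overlapped, with group D highest and group C lowest. The log2 difference from group A was -2.37 under Cu/ES (standard error 0.08), which is -1.27 relative to the median of all genes, and 0.63 under TCA (0.08).

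Ppp1r15a encodes GADD34, the stress-induced subunit that directs a phosphatase to eIF2 and so ends the response. Its FPKM was 59.2, 41.9 and 60.2 in group A, 845, 904 and 871 in group B, 1178, 1213 and 1149 in group C and 105, 71.1 and 101 in group D. It was the most abundant of the 10 genes in groups B and C, and library 2 was the lowest of groups A and D. The log2 difference from group A was 4.01 under Cu/ES (standard error 0.14), a ratio of means of 16.2, and 0.77 under TCA (0.14), a ratio of 1.72. Tulp2, which overlaps it on the opposite strand, had a mean of at most 0.0301 FPKM in any group.

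Of the effector genes, those of amino acid and glutathione metabolism were higher under TCA, while under Cu/ES they were lower or overlapping as deposited and higher with median-ratio scaling. Asns encodes asparagine synthetase, a classic ATF4 target. Its FPKM was 113, 91.6 and 111 in group A, 70.5, 57.1 and 68.7 in group B, 69.6, 60.5 and 71.9 in group C and 138, 121 and 145 in group D. Groups B and C overlapped and lay below group A, which lay below group D, and library 2 was the lowest in each group. The log2 difference from group A was -0.68 under Cu/ES (standard error 0.11) and 0.35 under TCA (0.11), and the former was 0.59 with median-ratio scaling.

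Chac1 encodes an enzyme that degrades glutathione. Its FPKM was 33.0, 30.8 and 34.9 in group A, 30.9, 27.7 and 27.5 in group B, 22.5, 22.2 and 20.1 in group C and 58.6, 48.8 and 64.5 in group D. It was the only one of the 10 genes whose groups A and B overlapped, by library 1 of group B and library 2 of group A. The log2 difference from group A was -0.19 under Cu/ES (standard error 0.09) and 0.77 under TCA (0.09), and the former was 1.05 with median-ratio scaling and 0.33 with quantile normalization.

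Sesn2 and Ddit4 both encode restraints on the growth kinase complex mTORC1, and they differed under Cu/ES. Sesn2 (sestrin 2) had an FPKM of 29.7, 27.8 and 31.1 in group A, 142, 143 and 127 in group B, 140, 101 and 128 in group C and 44.3, 43.4 and 49.6 in group D. Its groups B and C overlapped, both above group D, which was above group A. The log2 difference from group A was 2.18 under Cu/ES (standard error 0.10) and 0.62 under TCA (0.10). Ddit4 (REDD1) had 157, 123 and 168 FPKM in group A, 70.1, 99.7 and 80.2 in group B, 88.3, 116 and 91.4 in group C and 194, 126 and 158 in group D. Its SD of 21.3% of the mean in group D was the widest of any of the 10 genes in any group, and groups A and D overlapped. The log2 difference from group A was -0.84 under Cu/ES (standard error 0.17), which was 0.44 with median-ratio scaling, and 0.08 under TCA (0.17), which was -0.07 without library 1 of group D and -0.05 without library 2 of group A.

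**Figure D2:**
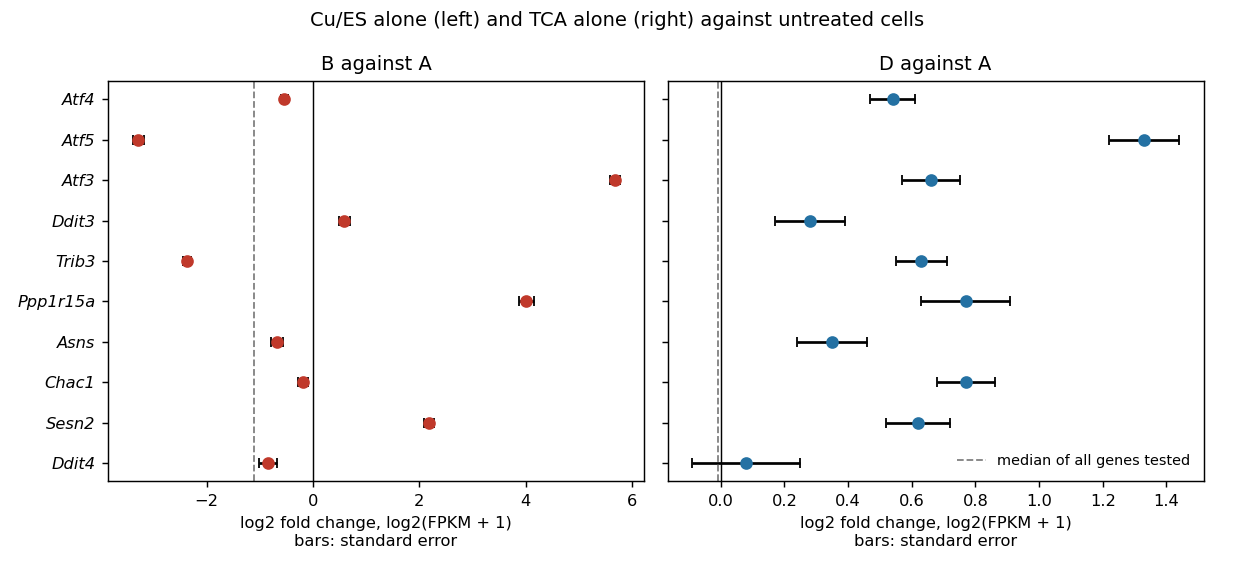
Log2 fold change of log2(FPKM + 1) of the 10 genes for Cu/ES alone (group B against A, left) and TCA alone (group D against A, right), with standard errors and the median of all 10615 genes as a dashed line at -1.10 and -0.01. Under Cu/ES the values spread from -3.28 to 5.67 on both sides of 0, and under TCA all 10 lie between 0.08 and 1.33.

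Set side by side, TCA alone gave values of 1 sign and Cu/ES gave both. Under TCA 9 of the 10 genes were higher without overlap, against 20.7% of all genes tested, and the members' median log2 difference was 0.62 (all genes -0.01). Under Cu/ES 4 were higher without overlap (Atf3, Ppp1r15a, Sesn2 and Ddit3, against 20.5% of all genes), 5 were lower (Atf5, Trib3, Ddit4, Asns and Atf4, against 72.4%) and Chac1 overlapped. Their median there was -0.37 as deposited, -0.74 in TPM, -0.21 with quantile normalization and 0.90 with median-ratio scaling, and 8 of the 10 lay above the median of all genes. These contrasts share the libraries of group A and were used to choose the genes, so nothing is read from the counts. Atf4, Asns, Ddit4 and Chac1 were the genes whose sign under Cu/ES depended on the scaling, while Atf5 and Trib3 were lower and Atf3, Ppp1r15a, Sesn2 and Ddit3 higher under each of the 4 scalings.

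**Figure D3:**
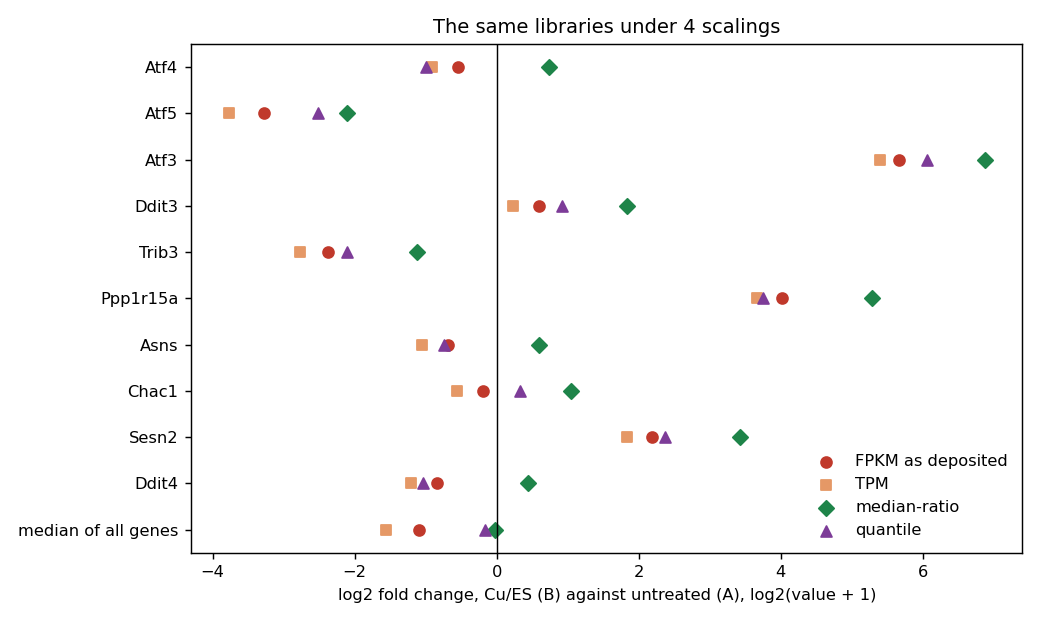
Log2 fold change of the 10 genes and the median of all genes between groups B (Cu/ES) and A (untreated), from FPKM as deposited, TPM, median-ratio scaling and quantile normalization. Median-ratio scaling moves every point to the right, which places Atf4 (0.74), Asns (0.59), Chac1 (1.05) and Ddit4 (0.44) above 0.

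Group C against group B asks how the 10 genes differ when TCA is given together with Cu/ES. Groups B and D were also part of the contrasts on which the genes were chosen, so the p-values of group C against either are not independent of that choice. Of the 10 genes, 0 passed both thresholds, an adjusted p under 0.05 and a log2 fold change beyond 1 either way, between groups C and B (limma with Benjamini-Hochberg adjustment over all 10615 genes, and likewise 0 with limma-voom on recovered reads), where 1.13% of all genes passed both upward and 1.16% downward. At the adjusted p alone 3 rose and 2 fell, against 20.4% and 23.6% of all genes, and the same 5 passed an unadjusted p of 0.05. Their libraries were also the ones without overlap, against 22.0% of all genes higher and 27.2% lower without overlap. Atf5 rose by a log2 of 0.63 (95% confidence interval 0.40 to 0.87, adjusted p = 3.51e-04) and Atf4 by 0.32 (0.18 to 0.47, adjusted p = 0.00151). On the deposited scale the highest library of Atf4 in group C had 236 FPKM and the lowest in group A 245, while with median-ratio scaling group B was already above group A (0.74).

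Ppp1r15a rose further between groups B and C, by 0.43 on the log2 scale (95% confidence interval 0.13 to 0.74, adjusted p = 0.0245), all 3 libraries being higher. That call was lost without library 1 or 3 of group B (adjusted p = 0.0695 and 0.0590), without library 1 or 2 of group C (0.0537 and 0.0501) and without the filter on low values (0.0931). Chac1 fell by 0.39 (interval -0.60 to -0.19, adjusted p = 0.00416) and Trib3 fell by 0.31 (interval -0.47 to -0.14, adjusted p = 0.00487), each lower in 3 of 3 libraries. Both had been higher under TCA without Cu/ES. The other 5 genes overlapped between groups B and C. Their log2 differences were -0.09 for Atf3 (interval -0.29 to 0.10, adjusted p = 0.439), -0.04 for Ddit3 (-0.28 to 0.19, 0.796), 0.04 for Asns (-0.18 to 0.27, 0.774), -0.17 for Sesn2 (-0.39 to 0.06, 0.215) and 0.24 for Ddit4 (-0.12 to 0.60, 0.267). By an exact permutation test of 3 libraries against 3, each of the 5 genes that passed had p = 0.1, the smallest that this design allows.

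Adding Cu/ES to TCA gave wider differences. This contrast shares no library with that of groups B and A, but it shares those of group D with the contrast of groups D and A. All 10 genes passed the adjusted p in group C against group D, 4 higher and 6 lower, where 20.9% of all genes passed upward and 71.5% downward. With the fold threshold, Atf3, Ppp1r15a and Sesn2 rose and Atf5, Trib3 and Chac1 fell, against 11.2% and 53.3% of all genes. This split was 4 higher and 2 lower with median-ratio scaling, where 25.9% of all genes were higher and 27.2% lower, and 3 higher and 5 lower in TPM, where 9.28% and 61.8% were. Libraries did not overlap in 3 genes that were higher and 6 that were lower, against 20.4% and 71.6% of all genes, and overlapped in Ddit3.

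The log2 fold change of Atf3 was 4.92 (95% confidence interval 4.72 to 5.11, adjusted p = 1.92e-14), that of Ppp1r15a 3.68 (3.37 to 3.99, adjusted p = 5.60e-12) and that of Sesn2 1.40 (1.17 to 1.62, adjusted p = 7.01e-09). Atf5 fell by 3.97 (interval -4.20 to -3.74, adjusted p = 2.16e-13) and Trib3 fell by 3.31 (interval -3.47 to -3.14, adjusted p = 7.44e-14), which is -2.85 and -2.18 relative to the median of all genes. Chac1 fell by 1.36 (interval -1.56 to -1.16, adjusted p = 3.53e-09), which is -0.23 relative to that median, and with median-ratio scaling its value was -0.14 (adjusted p = 0.224). Atf4 fell by 0.76 (adjusted p = 4.99e-08), Asns fell by 0.99 (adjusted p = 4.92e-07) and Ddit4 fell by 0.68 (adjusted p = 0.00152), and all 3 were higher instead with median-ratio scaling, by 0.49, 0.26 and 0.57. Ddit3 rose by 0.27 (interval 0.03 to 0.50, adjusted p = 0.0316) with overlapping libraries (exact permutation test, p = 0.200). Its call was lost without library 2 of group C (adjusted p = 0.162), library 2 of group D (0.146) or library 3 of group D (0.0607), without the filter (0.0780), with only groups C and D in the fit (0.0723) and in TPM, where the value was -0.02 (0.873). The call was kept with median-ratio scaling (adjusted p = 6.13e-08), which gave a larger value, and with quantile normalization (0.64, adjusted p = 6.45e-05). As deposited, the value of Ddit3 was 1.39 relative to the median of all genes.

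**Figure D4:**
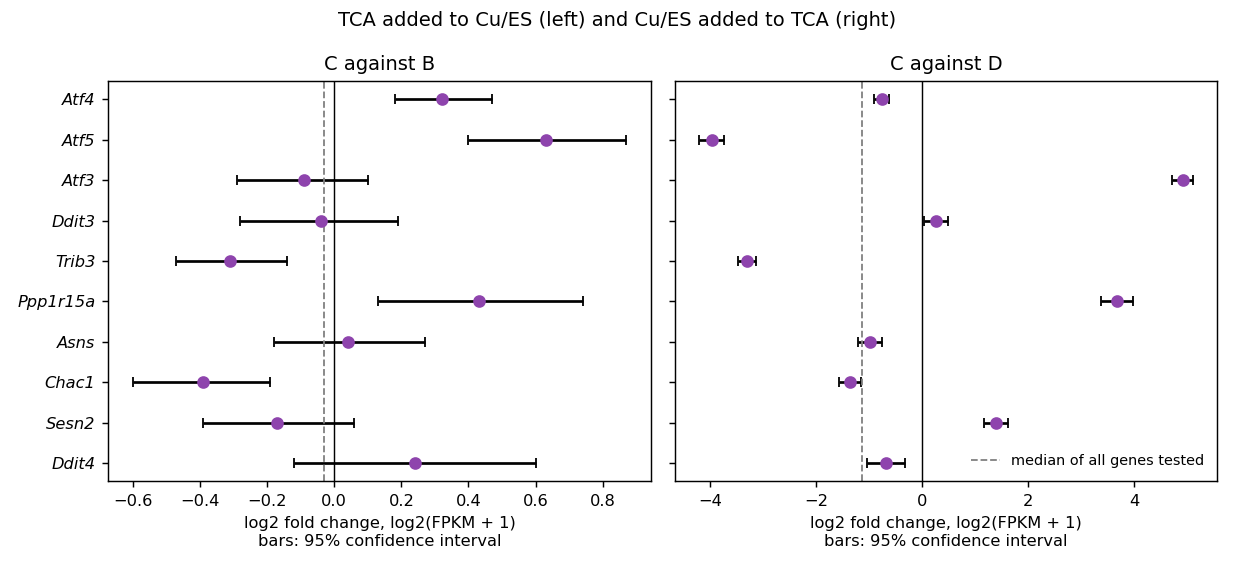
Log2 fold change of log2(FPKM + 1) of the 10 genes when TCA was added to Cu/ES (group C against B, left) and when Cu/ES was added to TCA (group C against D, right), with 95% confidence intervals and the median of all genes as a dashed line at -0.03 and -1.13. The axes differ: the left values lie between -0.39 and 0.63, the right ones between -3.97 and 4.92.

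The order of levels among the 10 genes followed these changes. FPKM is a level per length, so it can be set between genes. In group A it ran from Atf4 (251 ± 5.13, mean ± SD, n = 3) over Ddit4 (149 ± 23.4), Asns (105 ± 11.8) and Trib3 (93.6 ± 6.24) to Atf3 (8.06 ± 1.07). Asns and Trib3, Ppp1r15a and Atf5, and Ddit3, Chac1 and Sesn2 were neighbours whose libraries overlapped. In group D Atf4 was again highest (366 ± 18.2) and Atf3 lowest (13.3 ± 1.08), and Ddit4, Trib3, Asns and Atf5 overlapped in a chain, as did Chac1, Sesn2 and Ddit3. In group B Ppp1r15a (873 ± 29.8) and Atf3 (460 ± 27.9) stood above Atf4 (172 ± 6.69) without overlap, Trib3 (17.3 ± 1.27) and Atf5 (4.38 ± 0.661) were at the bottom, and only Ddit4 and Asns overlapped as neighbours. Group C had the same order as group B from Ppp1r15a (1180 ± 31.8) to Atf5 (7.31 ± 0.388), with overlap between Sesn2 (123 ± 19.8) and Ddit4 (98.4 ± 15.0) and between Asns (67.3 ± 6.07) and Ddit3 (52.1 ± 8.63).

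For each member, the gene outside the set whose log2(FPKM + 1) profile over the 12 libraries, centred on group A, lay closest was taken from the other 10605 genes tested. Chac1 and Ddit4 had genes of the lists described below as nearest, Slc6a9, a glycine transporter (Euclidean distance 0.408), and Cebpg, a bZIP partner of ATF4 (0.492). Atf3 lay closest to Hsph1, a heat shock protein (0.763), whose mean FPKM was 10.5, 537, 425 and 15.7 in groups A to D. Atf4 was nearest to Tomm40, the pore of the outer mitochondrial membrane (0.307), with means of 39.2, 26.8, 36.5 and 53.3 FPKM, and Sesn2 to Top1, DNA topoisomerase I (0.466). Further pairs were Asns with Mrtfa (0.253), Ddit3 with Dph3 (0.322), Trib3 with Mmp28 (0.519) and Ppp1r15a with 1700017M07Rik (0.851).

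The gene lists below were chosen with earlier results of these data known, so their counts and p-values are not independent of that choice. Their counts under Cu/ES are set beside all genes tested. Of these, 10.1% rose and 53.0% fell past both thresholds in group B against A as deposited, and 25.9% and 25.5% with median-ratio scaling. Upstream of the members, of 18 tested genes for eIF2 kinases, eIF2, its exchange factor eIF2B and their partners, 2 rose and 7 fell past both thresholds, and with median-ratio scaling 6 rose and 3 fell. Impact, whose product holds back the amino acid sensing kinase GCN2, rose most, from 8.51 to 54.3 FPKM (log2 fold change 2.54, standard error 0.10, adjusted p = 7.32e-12). Eif2ak2, the kinase PKR that senses double-stranded RNA, fell most, from 16.8 to 0.656 FPKM (log2 fold change -3.42, adjusted p = 8.83e-13). The other kinases, named after their values were seen, had log2 fold changes of -2.83 for Eif2ak4 (GCN2), -0.49 for Eif2ak3 (PERK) and 0.56 for Eif2ak1 (HRI), each past the adjusted p, though that of Eif2ak3 was 0.65 with median-ratio scaling and 0.75 with quantile normalization. Under TCA 0 of the 18 passed both thresholds in limma or limma-voom, as 0.0659% of all genes did upward and 0.151% downward. At the adjusted p alone 5 rose and 1 fell, against 10.5% and 11.5% of all genes, and 8 passed an unadjusted p of 0.05.

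Of the paralogs of the members, 2 of 7 tested rose and 4 fell past both thresholds under Cu/ES (10.1% and 53.0% of all genes), and 2 and 3 with median-ratio scaling (25.9% and 25.5%). Ppp1r15b, the constitutive counterpart of Ppp1r15a, rose most, from 26.9 to 92.9 FPKM (log2 fold change 1.75, adjusted p = 4.55e-11), and Sesn3 fell most, from 11.5 to 0.779 FPKM (-2.82, adjusted p = 1.30e-11), while Sesn2 was higher there. Trib1, the other gene that rose, had 10.5 and 34.8 FPKM, the opposite of Trib3, and Trib2 fell from 7.29 to 0.323. Under TCA, at the adjusted p, Ppp1r15b, Trib1 and Jdp2 rose and Trib2 fell, against 10.5% and 11.5% of all genes.

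Of 23 other targets of ATF4 and CHOP tested, 5 rose and 8 fell past both thresholds under Cu/ES (10.1% and 53.0% of all genes), and 7 and 6 with median-ratio scaling (25.9% and 25.5%). Their median was -0.92 on the log2 scale against -1.10 for all genes. Sqstm1, the autophagy receptor p62, rose most, from 286 to 2034 FPKM (log2 fold change 2.83, adjusted p = 1.40e-12), and Pck2, the mitochondrial form of phosphoenolpyruvate carboxykinase, fell most, from 69.7 to 3.89 FPKM (-3.85, adjusted p = 2.88e-14). The other 4 that rose were Cebpb (2.29), Gdf15 (1.89), Map1lc3b (1.57) and Fgf21 (1.51). Under TCA 0 of 23 passed both thresholds in limma, 1 did with limma-voom on recovered reads, and at the adjusted p alone 7 rose and 2 fell (10.5% and 11.5% of all genes), with 13 past an unadjusted p of 0.05. In group C against B 0 passed both in limma and 1 in limma-voom, 17 passed an unadjusted p of 0.05, and 7 rose and 7 fell at the adjusted p (20.4% and 23.6% of all genes), among them Gdf15 and Fgf21, which fell by 0.87 and 0.64. The CARE was in 6 of the 27 promoter windows of the 19 listed genes that had a window, against 3.97% of all windows.

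The genes of amino acid synthesis and transport, another arm under ATF4, went 1 way under TCA. This list was chosen with earlier results of these data known, so its counts and p-values are not independent of that choice. All 16 tested had log2 fold changes above 0 in group D against A, from 0.31 to 0.86 with a median of 0.51, and 14 of them rose at the adjusted p, against 10.5% of all genes, with median-ratio scaling as well. Slc6a9 (0.86, adjusted p = 5.02e-04), the cystine transporter Slc7a11 (0.85, adjusted p = 0.00117) and the serine phosphatase Psph (0.65, adjusted p = 0.00104) had the largest values, and Cth (0.48, adjusted p = 0.0777) and Pycr1 (0.35, adjusted p = 0.0645) were the ones that missed. The fold threshold was passed by 0 of them in limma and in limma-voom, but by Slc6a9 (1.06) and Slc7a11 (1.03) with quantile normalization, and an unadjusted p of 0.05 by 16. Under Cu/ES their median was 0.10 against -1.10 for all genes. Past both thresholds 1 rose, Phgdh, which opens serine synthesis (from 296 to 654 FPKM, log2 fold change 1.14, adjusted p = 2.04e-10, but 0.77 in TPM and 0.42 with quantile normalization, under the fold threshold), and 2 fell, Aldh18a1, of proline synthesis (from 68.8 to 17.9 FPKM, -1.89, adjusted p = 1.39e-10), and Slc7a5, a carrier of large neutral amino acids (-1.18, but 0.09 with median-ratio scaling). Past both thresholds 11 rose and 0 fell with median-ratio scaling (25.9% and 25.5% of all genes), 2 rose and 2 fell with quantile normalization (20.0% and 25.1%) and 0 rose and 3 fell in TPM (7.98% and 63.3%). When TCA was added to Cu/ES, 1 rose and 9 fell at the adjusted p, against 20.4% and 23.6% of all genes, with a median of -0.24. With median-ratio scaling 2 rose and 8 fell, where 2396 and 2580 of all 10615 genes did. In TPM 2 rose and 5 fell (2423 and 2090 of all genes), and with quantile normalization 1 rose and 5 fell (2150 and 2650).

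**Figure D5:**
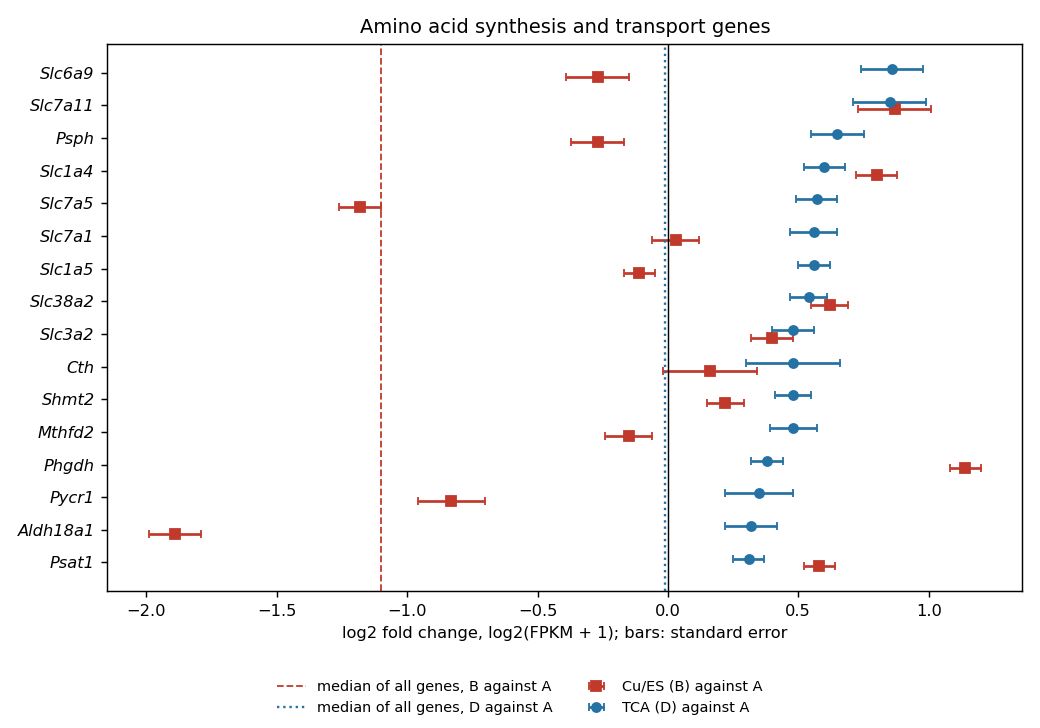
Log2 fold change of log2(FPKM + 1), with standard errors, of the 16 tested genes of amino acid synthesis and transport under Cu/ES (squares) and under TCA (circles), each against group A, with the medians of all genes at -1.10 and -0.01 as vertical lines. The circles lie between 0.31 and 0.86, and the squares between -1.89 (Aldh18a1) and 1.14 (Phgdh).

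Relatives of the members in the bZIP family and genes of the other arm of endoplasmic reticulum stress were set beside the same shares of all genes (10.1% and 53.0% as deposited, 25.9% and 25.5% with median-ratio scaling). Of 14 bZIP genes tested, 1 rose past both thresholds under Cu/ES, Cebpb, which encodes a partner of CHOP (from 57.4 to 283 FPKM, log2 fold change 2.29, adjusted p = 6.98e-12), and 6 fell, most of all Cebpd (from 10.5 to 0.0791 FPKM, -3.41, adjusted p = 2.82e-12), against 4 and 4 with median-ratio scaling. Of 16 genes that ATF6 and XBP1 control in the endoplasmic reticulum, 2 rose, the chaperone genes Dnajb9 (from 23.3 to 269 FPKM, log2 fold change 3.48, adjusted p = 1.59e-12) and Hspa5 (1.05, adjusted p = 7.03e-08, but -0.01 with quantile normalization), and 8 fell, most of all Sdf2l1 (from 44.3 to 4.11 FPKM, -3.14, adjusted p = 1.31e-12). With median-ratio scaling 7 rose and 1 fell. Under TCA 5 of these 16 rose and 0 fell at the adjusted p in limma (6 and 0 at an unadjusted p of 0.05), their median being 0.14 on the log2 scale, and 4 bZIP genes rose and 1 fell, against 10.5% and 11.5% of all genes. The lists share genes, so their counts are not separate. Cebpb, Cebpg and Jdp2 are bZIP genes and also on the target list, and Jdp2 is among the paralogs. Dnajc3 is on the list of eIF2 kinases and on that of ATF6 and XBP1.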

How the data were processed

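RNA of AML12 cells was sequenced on an Illumina NovaSeq. The authors deposited FPKM (reads scaled by gene length and library total) per library. The submitters' processing notes name fastp, HISAT2, HTSeq and GRCm39, and the annotation is not given in the sources used here. As these are not counts, log2(FPKM + 1) was fitted here, where the mean FPKM reached 1, with limma 3.58.1 in R 4.3.3 (12 libraries, 4 group terms, trend, 8 residual degrees of freedom, two-sided, Benjamini-Hochberg over 10615 genes). Calls needed an adjusted p under 0.05, with or without an absolute log2 fold change above 1. For 22212 of 22212 genes above 0 in at least 2 libraries, a scale that gave whole reads (within 0.01 read) was found. In genes above 0 in few libraries such a scale is nearly always found, so the count cannot check the reads there. On these reads limma-voom called 7289 genes in B against A, 104 in D against A, 780 in C against B and 7450 in C against D, against 6692, 23, 243 and 6851. Reads cover counting error only.

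Members, lists and tests were chosen with earlier results of these data known. Named were the members, the list genes past both thresholds with the largest rise and fall under each agent, and each member's nearest profile, of which 1 is not reported here. Genes named otherwise were chosen after their values were seen. Same-numbered libraries of groups A and B deviated together (r of 0.173, 0.174 and 0.142 across genes), while the labels state no pairing. Promoter windows came from RefSeq on GRCm38.p6, start codons and overlaps from GENCODE vM21 on GRCm38. All members had a window. Only the limma fit was tested on simulated data. Rises and falls were equally many there, so it did not test the shift of most genes under Cu/ES. Tables were made with pandas 2.3.3, numpy 2.4.6 and Python 3.11.15, tests with scipy 1.17.1, plots with matplotlib 3.10.9.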

Additional observations from a re-analysis of the deposited data

Results flagged for a closer look

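TCA moved Chac1 in opposite directions with and without Cu/ES. Its log2 fold change was 0.77 in group D against A and -0.39 in group C against B, a difference of -1.17. Every library of group D was above the mean of group A and every library of group C below the mean of group B. Trib3 did the same, with 0.63 and -0.31 and a difference of -0.94. Atf3 (0.66 and -0.09), Sesn2 (0.62 and -0.17) and Ddit3 (0.28 and -0.04) also had opposite signs, but their libraries overlapped between groups B and C. In every member but Ddit4, with a difference of 0.16, the value with Cu/ES was below that without. None of these differences was tested, since the values of group D against A had served to choose the genes.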

How the results depend on the processing

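Of 176 recomputed summary values, 163 stayed close to the main value, 12 moved further and 1 changed sign. Close means a count of equal or similar size, or a median that moved less than the libraries spread. The members' median between groups B and A was -0.37, with -0.74 in TPM, -0.21 with quantile normalization and 0.90 with median-ratio scaling. That scaling also turned Atf4 (0.74), Chac1 (1.05), Asns (0.59) and Ddit4 (0.44) between B and A, and Atf4 (0.49), Asns (0.26) and Ddit4 (0.57) between C and D. Quantile normalization turned Chac1 between B and A (0.33), and Ddit3 between C and B came to 0.00. In TPM Ddit3 was 0.03 between C and B and -0.02 between C and D. The ATF4-CHOP target list had 20 calls in TPM between B and A, against 13. It had 1 call instead of 0 between D and A with a pseudocount of 0.1, in TPM and with limma-voom, and between C and B with these and with quantile normalization. Leaving out 1 library gave 0 to 1 calls in both, -0.07 to 0.24 for Ddit4 between D and A, and between C and B -0.16 to 0.07 for Ddit3 and -0.05 to 0.12 for Asns. The cause of these changes was not tested. With median-ratio scaling the median of all genes tested was -0.03 between B and A, against -1.10 as deposited. It was -0.01 as deposited without the filter on low values, where all 24824 genes of the table entered. Calls over all genes moved most between D and A (23, with 95 at a pseudocount of 0.1, 59 in TPM, 15 with median-ratio scaling, 14 at a mean FPKM of at least 5 and 104 with limma-voom) and between C and B (243, with 703, 386 and 780 at that pseudocount, in TPM and with limma-voom). At a mean FPKM of at least 5, fewer genes were tested and 4089 and 4280 were called between B and A and between C and D, against 6692 and 6851. The replicate number as a block left the members' calls at 0 between C and B and 6 between C and D, and changed no call of a member there. Of the list genes, 1 gained an adjusted p under 0.05 with the block between B and A (Slc6a9, 0.0104), 7 between D and A, 4 between C and B and 3 between C and D, and 0 lost it. Between D and A the amino acid list then rose in 16 of 16 genes instead of 14 (Cth, adjusted p = 0.00204, and Pycr1, 0.0153). Not every same-numbered pair deviated together there (r of 0.087, 0.579 and 0.302 between A and D, 0.277, 0.243 and 0.005 between B and C, and -0.171, -0.067 and 0.110 between C and D), so these numbers were not taken as pairing. Depth limits Atf5 most, with at least 212 reads per library.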
